A study of Mus musculus with 16 samples.

Results

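Hypothalamic gene expression was compared between diets with 2.5% and 20% of energy from protein in C57BL/6N, an inbred mouse strain. The comparison took 8 of the 16 RNA sequencing libraries of the series, chosen by the protein level on their diet label, and fat level was a covariate. The 4 libraries at 2.5% protein came from a diet with 60% of energy from fat (2 libraries) and a diet with 20% of energy from fat (2 libraries). The 4 libraries at 20% protein came from diets with the same fat levels, 2 libraries each. All were total RNA from hypothalamus dissected out of the brain, extracted with Trizol and made into libraries by a sequencing provider's standard protocol. The labels give no age, sex, time on diet or number of mice per library, and leave unsaid whether both libraries of a diet are from different animals. The p-values therefore cover only the spread among these libraries, and part or all of it may be technical. The catalogue codes of the diets begin alike at 2.5% and 1% protein and differently at 20% and 5%, so the start of the code and the protein level cannot be told apart here.

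The hypothalamus governs food intake, energy balance, stress hormones and reproduction. In its arcuate nucleus, neurons that make neuropeptide Y and agouti-related peptide drive feeding, and neurons that make proopiomelanocortin restrain it. Amino acid supply is sensed in cells by the kinase mTOR, which promotes growth when amino acids are plentiful, and by the transcription factor ATF4, which is made when they are scarce. The study's question was what dietary protein does to hypothalamic transcripts at each fixed fat level, with an interest in feeding and mTOR.

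Total counts in the 8 libraries ran from 18314547 to 18385804. The 4 libraries at 2.5% protein had 2.42% to 2.98% of counts on the mitochondrial genome, and the 4 at 20% protein had 2.43% to 2.80%. Transcription factors of hypothalamic nuclei were present in both groups: of 32 listed, 3 had a count of 0 in each library, and their summed level was 426 to 507 CPM at 2.5% protein and 483 to 514 CPM at 20% protein. CPM are counts scaled to library size with TMM factors. One library stood apart, replicate 2 at 20% fat and 2.5% protein. Slc17a7, the vesicular glutamate transporter of cortical neurons, had 10337 counts there, 1499 to 2513 in the other 3 libraries at 2.5% protein and 1376 to 2330 at 20% protein. For 19 tested markers of neurons of cortex and hippocampus, the mean log2 deviation from the average of the 16 libraries was 1.23 there and between -0.33 and -0.011 in the other 7. It is called the cortex-marker library below. A library at 1% protein, replicate 2 at 20% fat, also had a raised Slc17a7 count of 5074. Where a call described below changes without both, this is stated.

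Very few genes separated 2.5% from 20% protein over both fat levels. Of 16646 genes tested, 0 rose and 1 fell (0.00601%) at a Benjamini-Hochberg adjusted p under 0.05 from edgeR's quasi-likelihood test. At an unadjusted p under 0.05 there were 801 genes (4.81%), of which 327 (1.96%) were higher and 474 (2.85%) lower at 2.5% protein. At an adjusted p under 0.05 DESeq2 called 26 of the 16646 genes, 3 higher and 23 lower. The gene that edgeR called was not among them. The 4 libraries at 2.5% protein all lay above the 4 at 20% protein for 267 genes (1.60%) and all below for 379 (2.28%). The median log2 change of all genes tested was 0.0026. The gene that fell, Rnf181, encodes a ubiquitin ligase and lies on chromosome 6 (72359714 to 72366956, minus strand, GRCm38), where it overlaps the coding gene Tmem150a. It had 0, 1, 0 and 0 counts in the libraries at 2.5% protein, and 0 and 0 counts at 60% fat and 66 and 62 counts at 20% fat in the libraries at 20% protein. The call thus rests on both libraries of a single diet, and the groups overlap. Leaving out either of those libraries, or replicate 1 at 20% fat and 2.5% protein, gave 0 calls. Leaving out the cortex-marker library alone gave 2, Sphk1 and Col3a1, without Rnf181, and leaving out any of the 4 libraries at 60% fat gave 1 to 3 that included Rnf181.

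Without both libraries with cortex markers the same fit called 50 of 16932 genes (0.295%), of which 7 rose (0.0413%) and 43 fell (0.254%). These 50 calls depend on also leaving out the library at 1% protein, which enters the fit but not the comparison, since the cortex-marker library alone gave the 2 above. The 7 that rose were Mt1, Mt2, Hcrt, Pmch, Lgals3, Cacng7 and Cuedc1. Of these, Cacng7 had 90 counts in replicate 1 at 20% fat and 2.5% protein and 0 to 2 in the other 7 libraries, and Cuedc1 had 19, 56, 2 and 16 counts at 2.5% protein and 0 or 1 at 20% protein. Of the 43 that fell, 11 were on a list of 17 meningeal markers, 6 on a list of 16 markers of mural and fibroblast-like cells and 1, Pecam1, on a list of 17 endothelial markers. In the fit with all libraries 41 of the 43 had an unadjusted p under 0.05 and a lower value at 2.5% protein. Apart from the 10 genes Agrp, Npy, Pomc, Cartpt, Hcrt, Pmch, Mtor, Ddit4, Atf4 and Asns, and those the naming rule takes at 20% fat and at 1% protein, genes are named here after their values were seen.

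**Figure D1:**
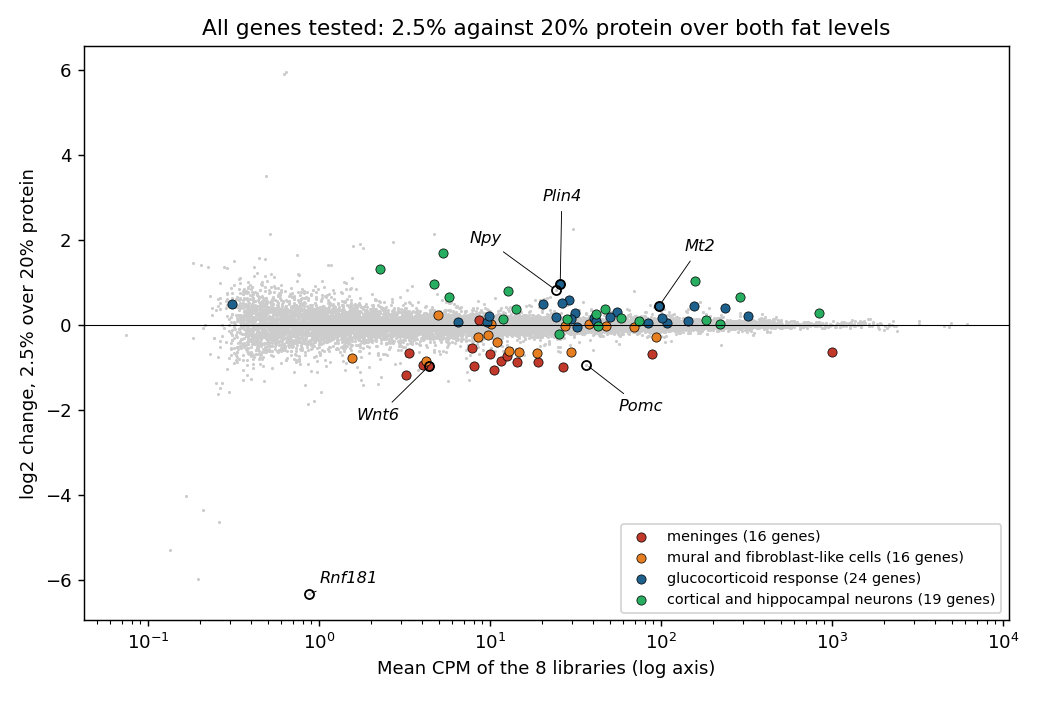
Log2 change of 2.5% over 20% protein (vertical axis) against the mean CPM of the 8 libraries (horizontal axis, log scale) for the 16646 genes tested. Each grey point is a gene, coloured points are members of 4 gene lists, and open circles mark labelled genes; 15 of the 16 meningeal markers lie below 0, and Rnf181 is the lone gene that passed the adjusted test.

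Of the peptide genes Agrp, Npy, Pomc, Cartpt, Hcrt and Pmch, Pomc and Npy had the largest log2 changes in size. Pomc encodes the precursor of the appetite-suppressing melanocortin alpha-MSH. At 2.5% protein it had 35.5 and 29.7 CPM with 60% fat and 18.7 and 17.2 CPM with 20% fat, against 41.7 and 46.5 CPM with 60% fat and 58.4 and 43.2 CPM with 20% fat at 20% protein. All 4 libraries at 2.5% protein lay below all 4 at 20% protein, and the lowest were the 2 at 20% fat. The log2 change over both fat levels was -0.93 ± 0.18 (SE), with an adjusted p of 0.120 in the edgeR quasi-likelihood test. At 20% fat alone Pomc fell by 1.4995 ± 0.18 on the log2 scale (adjusted p = 0.00650, edgeR quasi-likelihood), 1 of 2 genes (0.0120%) that passed there, the other being Rnf181. At 60% fat its log2 change was -0.44 ± 0.17 (adjusted p = 1.00 in the same test). The change at 60% fat minus that at 20% fat was 1.06 ± 0.25, with an unadjusted p of 0.000755 and an adjusted p of 1.00 over all genes in edgeR's test of the interaction.

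Npy encodes neuropeptide Y, which stimulates feeding. It had 26.1 and 25.4 CPM with 60% fat and 28.5 and 44.3 CPM with 20% fat at 2.5% protein, against 15.1 and 21.4 CPM with 60% fat and 19.0 and 13.6 CPM with 20% fat at 20% protein. Every library at 2.5% protein lay above every library at 20% protein, and the highest, 44.3 CPM, was the cortex-marker library. Npy is made in cortical interneurons as well as in the arcuate nucleus, and the part of cortical markers in its level was not tested. The log2 change was 0.82 ± 0.20 (SE), with an adjusted p of 0.328 (edgeR quasi-likelihood), and 0.65 ± 0.15 without both libraries with cortex markers (adjusted p = 0.0923). Agrp, an inverse agonist of melanocortin receptors made in the same arcuate neurons, had 4.84 to 6.39 CPM at 2.5% protein and 3.87 to 5.23 CPM at 20% protein. These ranges overlap, and the log2 change was 0.26 ± 0.14 (adjusted p = 1.00 in the same test). The counted span of Agrp, 70696 bases, overlaps the coding genes Ripor1 and Ctcf, so its count is uncertain.

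The lateral hypothalamic peptides passed only when both libraries with cortex markers were left out, among 19 alternatives run. Hcrt, the precursor of the orexins, had 164 and 195 CPM with 60% fat and 176 and 113 CPM with 20% fat at 2.5% protein, against 114 and 126 CPM with 60% fat and 143 and 115 CPM with 20% fat at 20% protein. The lowest value at 2.5% protein was the cortex-marker library, and the other 3 lay above all 4 at 20% protein. Pmch, the precursor of melanin-concentrating hormone, showed the same arrangement, with 139.9, 122, 128 and 92.7 CPM at 2.5% protein in the same order of diets, against 99.2, 100.2, 108 and 100.9 CPM at 20% protein. The log2 changes with all libraries were 0.37 ± 0.16 (SE) for Hcrt and 0.24 ± 0.10 for Pmch, with adjusted p of 0.973 and 0.962 in the edgeR quasi-likelihood test. When both libraries with cortex markers were left out, Hcrt rose by 0.53 ± 0.073 (adjusted p = 0.00762, edgeR) and Pmch by 0.37 ± 0.065 (adjusted p = 0.0169, edgeR). Neither passed when the cortex-marker library alone was left out, with log2 changes of 0.51 and 0.36. Pmch overlaps the coding gene Parpbp. Cartpt, a satiety peptide made with Pomc in the arcuate nucleus and in other neurons, had 61.1 to 86.9 CPM at 2.5% protein and 66.3 to 112 CPM at 20% protein (log2 change -0.28 ± 0.13, adjusted p = 1.00, edgeR).

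**Figure D2:**
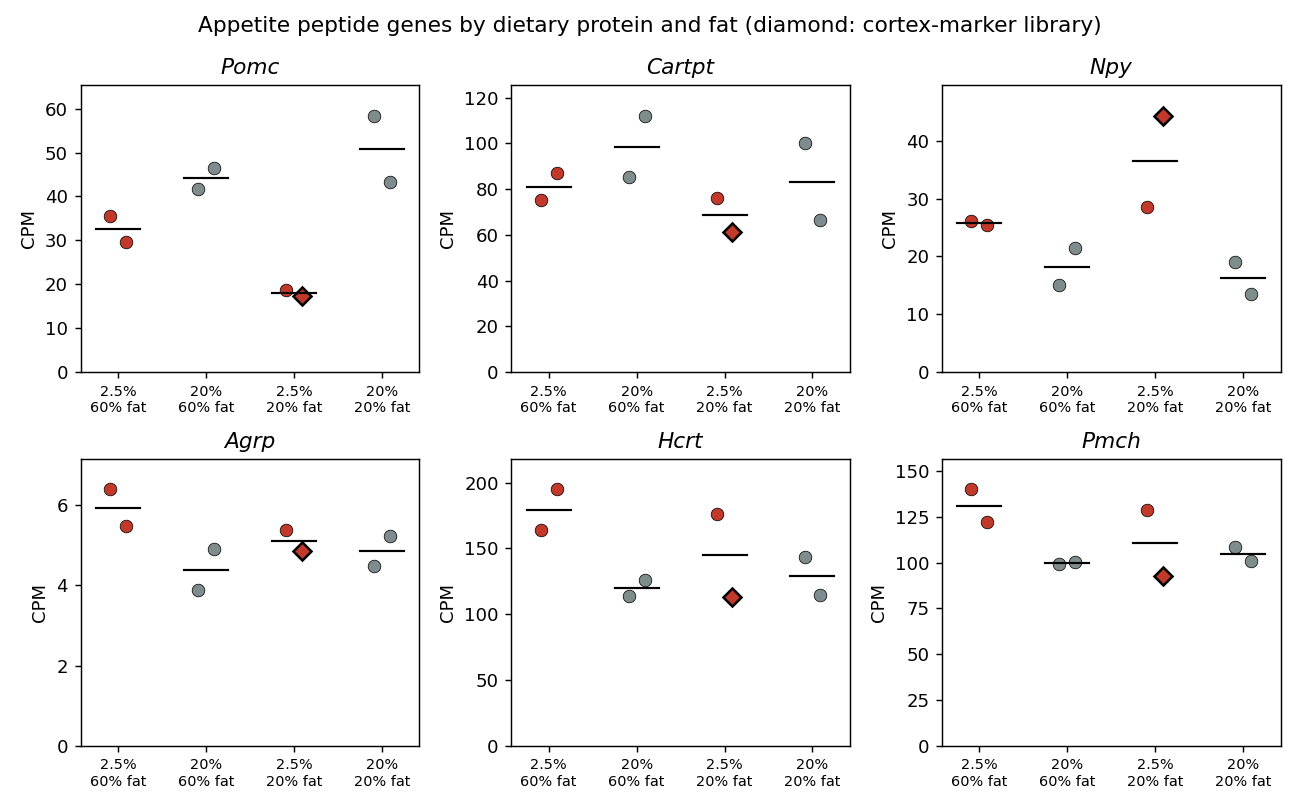
CPM of 6 appetite peptide genes in each of the 8 libraries (points; lines are means of 2 libraries), by protein level within each fat level; the diamond is the cortex-marker library. Pomc is lowest at 2.5% protein with 20% fat (18.7 and 17.2 CPM), and in the panels of Hcrt and Pmch the diamond lies below the other 3 points at 2.5% protein.

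Across the wider appetite lists no member passed the adjusted test over both fat levels. Of 12 orexigenic peptide genes, 3 had an unadjusted p under 0.05 in the higher direction (Npy, Pmch and Hcrt) and 0 in the lower, with a median log2 change of 0.13. Of 18 anorexigenic peptide genes, 3 were higher and 3 lower at that threshold, with a median of -0.0031. Of all genes, 1.96% were higher and 2.85% lower at that threshold. Cck, the gut and brain peptide cholecystokinin, had 79.6, 71.9, 60.4 and 138 CPM at 2.5% protein, against 57.7, 55.9, 52.5 and 36.8 CPM at 20% protein. Its highest value was the cortex-marker library, and its log2 change was 0.80 ± 0.22 with all libraries and 0.44 without both libraries with cortex markers. Avp, the water-retaining hormone vasopressin, had 162 to 233 CPM at 2.5% protein and 239 to 286 CPM at 20% protein, with no overlap (log2 change -0.48 ± 0.19, unadjusted p = 0.0217). Crh, which starts the stress hormone cascade, had 12.7 to 14.5 CPM at 2.5% protein and 10.03 to 11.7 CPM at 20% protein, also with no overlap (0.28 ± 0.096, unadjusted p = 0.0107).

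Receptors and signal carriers of appetite circuits had log2 changes from -0.44 to 0.55, with a median of -0.076. Of 30 tested, 1 was higher and 5 were lower at an unadjusted p under 0.05 (1.96% and 2.85% of all genes). In 7 all 4 libraries at 2.5% protein lay below all 4 at 20% protein (2.28% of all genes). In 0 all lay above (1.60% of all genes). Npy2r, the Y2 receptor through which neuropeptide Y neurons restrain themselves, had 14.7 to 19.7 CPM at 2.5% protein and 21.5 to 23.2 CPM at 20% protein (log2 change -0.36 ± 0.095, adjusted p = 0.397 in the edgeR quasi-likelihood test). Stat3, which carries the leptin signal to the nucleus, had 81.8 to 90.6 CPM at 2.5% protein and 94.3 to 103 CPM at 20% protein (-0.21 ± 0.061). Socs3, a feedback inhibitor of that signal, averaged 3.25 ± 0.60 CPM at 2.5% protein and 4.41 ± 0.48 CPM at 20% protein (SD, n = 4 each; log2 change -0.44 ± 0.14). Fgfr1, a receptor of fibroblast growth factors, had 152 to 156 CPM at 2.5% protein and 168 to 180 CPM at 20% protein (-0.18 ± 0.050). The ranges of Npy2r, Stat3 and Fgfr1 do not overlap, and that of Socs3 does. Of 13 prohormone processing genes, Pcsk2, a convertase that cleaves proopiomelanocortin products, had 232 to 255 CPM at 2.5% protein and 211 to 218 CPM at 20% protein (0.20 ± 0.050, adjusted p = 0.346, edgeR).

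Metallothioneins bind zinc and copper, and are raised by metals, stress hormones and oxidants. Mt1 and Mt2 are neighbours on chromosome 8 (94179082 to 94180327 and 94172664 to 94173568, plus strand, GRCm38). Mt2 had 119.95 and 93.5 CPM with 60% fat and 122 and 115 CPM with 20% fat at 2.5% protein, against 76.9 and 74.7 CPM with 60% fat and 91.8 and 85.8 CPM with 20% fat at 20% protein. Mt1 had 269.9 and 236 CPM with 60% fat and 303 and 262 CPM with 20% fat at 2.5% protein, against 199.7 and 207 CPM with 60% fat and 217 and 194 CPM with 20% fat at 20% protein. Both genes had all 4 libraries at 2.5% protein above all 4 at 20% protein, the cortex-marker library being neither highest nor lowest for either. The means were 1.37 times (Mt2) and 1.31 times (Mt1) those at 20% protein. The log2 changes were 0.45 ± 0.077 (SE) for Mt2 and 0.39 ± 0.069 for Mt1, with adjusted p of 0.0664 and 0.0807 in the edgeR quasi-likelihood test. Mt2 rose by 0.46 ± 0.081 (adjusted p = 0.0169, edgeR) and Mt1 by 0.40 ± 0.070 (adjusted p = 0.0161, edgeR) without both libraries with cortex markers. Mt3, the metallothionein of the brain, averaged 413 ± 21.0 CPM at 2.5% protein and 374 ± 49.6 CPM at 20% protein (SD, n = 4 each), and the groups overlap.

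The promoters of Mt1 and Mt2 are shown because these neighbouring genes had the same arrangement of libraries, and that of Pomc because it passed at 20% fat. Each runs from 250 bases before to 50 bases after the start annotated by RefSeq on GRCm38.p6, on the plus strand: chr8:94178839-94179138 for Mt1, chr8:94172368-94172667 for Mt2 and chr12:3954695-3954994 for Pomc. In Mt1 and Mt2, capitals mark TGCNCNC on either strand, a loose pattern that covers the metal response element core and other sequences. In Mt1 capitals also mark ACANNNTGT, the core of a glucocorticoid receptor element, at bases -92 to -84 from the start. In Pomc, capitals mark TATAAA, the TATA box, at bases -25 to -20.
Mt1: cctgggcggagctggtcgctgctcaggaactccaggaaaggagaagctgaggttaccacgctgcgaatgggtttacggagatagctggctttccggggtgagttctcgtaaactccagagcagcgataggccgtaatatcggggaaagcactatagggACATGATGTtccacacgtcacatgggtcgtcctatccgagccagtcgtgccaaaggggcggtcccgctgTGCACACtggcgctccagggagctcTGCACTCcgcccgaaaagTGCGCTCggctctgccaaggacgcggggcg
Mt2: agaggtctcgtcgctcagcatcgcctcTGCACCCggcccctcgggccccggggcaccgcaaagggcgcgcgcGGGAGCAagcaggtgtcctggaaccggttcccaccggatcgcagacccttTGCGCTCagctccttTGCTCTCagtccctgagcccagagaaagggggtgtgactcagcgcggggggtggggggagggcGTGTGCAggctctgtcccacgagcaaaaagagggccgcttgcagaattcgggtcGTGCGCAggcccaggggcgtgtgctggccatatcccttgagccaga
Pomc: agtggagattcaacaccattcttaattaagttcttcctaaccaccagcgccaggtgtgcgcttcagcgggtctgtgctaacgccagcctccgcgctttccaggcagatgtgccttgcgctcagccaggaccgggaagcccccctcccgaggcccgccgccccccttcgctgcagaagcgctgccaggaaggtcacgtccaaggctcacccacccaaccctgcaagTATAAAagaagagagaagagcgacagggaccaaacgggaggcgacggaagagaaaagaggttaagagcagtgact
TGCNCNC matched 3 times in Mt1, 6 times in Mt2 and 1 time in Pomc, at bases -136 to -130 (lower case above). Of 32851 promoters of the same length, 51.0% had 1 or more matches, so a match need not be a metal response element. TGCNCNC also matched 3 times in Wnt6 and 4 times in Ptgds, meningeal markers with lower values at 2.5% protein. The glucocorticoid receptor core matched 1 time in Mt1 and 0 times in Mt2, and is held by 6.85% of those promoters. TATAAA is held by 13.6%. The core of an ATF4 element, TGATGNAA (3.97% of promoters), and the E-box CACGTG (7.15%) had 0 matches in the windows of Mt1, Mt2, Pomc and Npy.

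Genes known to respond to glucocorticoids, the adrenal stress hormones, had a median log2 change of 0.20, against 0.0026 for all genes. Of 24 tested, 0 passed the adjusted test with all libraries, 9 had an unadjusted p under 0.05 in the higher direction (1.96% of all genes did) and 0 in the lower. The list includes Mt1 and Mt2, the only members that rose without both libraries with cortex markers, where the median was 0.18. Plin4, a lipid droplet coat protein, had 35.3, 16.1, 53.9 and 30.2 CPM at 2.5% protein, against 13.7, 13.2, 17.3 and 25.6 CPM at 20% protein. Its groups overlap, and it overlaps the coding gene Hdgfl2 (log2 change 0.96 ± 0.32, adjusted p = 0.731 in the edgeR quasi-likelihood test). Arrdc2 (0.59 ± 0.21), Cdkn1a, a cell cycle inhibitor (0.51 ± 0.24), and Hif3a, a hypoxia-inducible factor (0.50 ± 0.20), had unadjusted p of 0.0118, 0.0478 and 0.0227, each with overlapping groups. Sgk1, a kinase, and Fkbp5, a co-chaperone of the glucocorticoid receptor, had log2 changes of 0.45 ± 0.22 and 0.19 ± 0.14, with unadjusted p of 0.0608 and 0.201. Of the 22 list genes matched to a RefSeq promoter, 5 held the glucocorticoid receptor core: Fam107a, Lcn2, Map3k6, Mt1 and Sgk1. These 22 genes had 35 promoters. The core is held by 6.85% of all promoters, a share per promoter and not per gene, so the counts are not directly comparable.

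Genes of the mTOR pathway had medians close to that of all genes, 0.0026. Mtor, the kinase itself, had 161 to 168 CPM at 2.5% protein and 163 to 176 CPM at 20% protein (log2 change -0.058 ± 0.047, adjusted p = 1.00 in the edgeR quasi-likelihood test). It overlaps the coding gene Angptl7. Of 54 genes of mTOR complexes and their regulators, 1 was higher (Ddit4) and 1 lower (Sesn3) at an unadjusted p under 0.05. Their median was -0.0014. Of all genes, 1.96% were higher and 2.85% lower at that threshold. Of 22 mTORC1 effectors 0 were at that threshold, with a median of -0.020. Ddit4 encodes REDD1, a stress-induced inhibitor of mTOR complex 1 that glucocorticoids also raise. It had 56.5 and 55.2 CPM with 60% fat and 67.2 and 65.2 CPM with 20% fat at 2.5% protein, against 50.2 and 45.7 CPM with 60% fat and 51.2 and 49.3 CPM with 20% fat at 20% protein. The groups do not overlap, and its log2 change was 0.31 ± 0.081 (adjusted p = 0.357, edgeR). Phosphorylation, by which mTOR acts, is not measured by RNA counts.

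Genes of the amino acid shortage response had a median close to that as well. Atf4, its transcription factor, had 107 to 116 CPM at 2.5% protein and 99.5 to 117 CPM at 20% protein (log2 change 0.066 ± 0.060), and Asns, the asparagine synthetase that ATF4 induces, had 111 to 122 CPM at 2.5% protein and 111 to 118 CPM at 20% protein (0.0098 ± 0.065). Both had an adjusted p of 1.00 in the edgeR quasi-likelihood test. Of 42 listed genes, 2 were higher and 4 lower at an unadjusted p under 0.05, with a median of 0.010. Of 36 amino acid transporters, 0 were higher and 4 lower, with a median of -0.023. Of all genes, 1.96% were higher and 2.85% lower at that threshold. Slc6a20a, a proline carrier, averaged 10.7 CPM at 2.5% protein and 15.7 CPM at 20% protein (-0.55 ± 0.18, unadjusted p = 0.00671). Of 33 genes of amino acid and urea catabolism 0 were at that threshold.

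The largest group difference was in markers of the meninges, the membranes that cover the brain. Of 16 tested, 15 were lower at 2.5% protein at an unadjusted p under 0.05, which 2.85% of all genes were, and in 13 all 4 libraries at 2.5% protein lay below all 4 at 20% protein (2.28% of all genes). The median log2 change was -0.85. With all libraries 0 passed the adjusted test. Without both libraries with cortex markers 11 of 16 fell (0.254% of all genes), with a median of -0.88. Averaged over the 16 markers, the libraries at 2.5% protein lay at log2 -0.50, -0.041, -0.76 and -0.015 from the mean of all 16 libraries, and those at 20% protein at 0.38, 0.38, 0.67 and 0.54. Their summed level was 799 to 1114 CPM at 2.5% protein and 1369 to 1750 CPM at 20% protein, and 1 of the 17 listed markers had a count of 0 in every library. In bulk tissue, fewer cells of a type and less RNA per cell cannot be told apart, and the amount of membrane left on each dissected hypothalamus was not recorded in the labels.

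Wnt6, a secreted signalling protein on chromosome 1 (74771892 to 74785322, plus strand, GRCm38), had the smallest p of the list. It had 2.81 and 3.26 CPM with 60% fat and 2.37 and 3.37 CPM with 20% fat at 2.5% protein, against 5.70 and 5.44 CPM with 60% fat and 6.32 and 5.71 CPM with 20% fat at 20% protein. The groups do not overlap, and the log2 change was -0.97 ± 0.15 (SE), with an adjusted p of 0.0636 (edgeR quasi-likelihood). It fell by 1.02 ± 0.17 without both libraries with cortex markers (adjusted p = 0.0118, edgeR). Ptgds, the prostaglandin D synthase made by leptomeningeal cells and oligodendrocytes, had 664, 861, 687 and 894 CPM at 2.5% protein, against 1098, 1115, 1415 and 1232 CPM at 20% protein. Again no library at 2.5% protein reached the lowest at 20% protein (-0.64 ± 0.12, adjusted p = 0.120, edgeR), and without both libraries with cortex markers it fell by 0.70 ± 0.11 (adjusted p = 0.00988, edgeR). Foxc1, a transcription factor that meningeal development needs, had 5.79 to 6.74 CPM at 2.5% protein and 7.83 to 10.4 CPM at 20% protein (-0.55 ± 0.10, adjusted p = 0.116, edgeR), and without both it fell by 0.57 ± 0.11 (adjusted p = 0.0406, edgeR).

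The transporters and enzymes of the list followed the same arrangement. Slc6a13, a GABA and taurine carrier, had 6.78 to 9.94 CPM at 2.5% protein and 12.7 to 16.4 CPM at 20% protein (-0.84 ± 0.18). Aldh1a2, which makes retinoic acid, had 4.04 to 9.23 CPM at 2.5% protein and 12.9 to 15.2 CPM at 20% protein (-1.05 ± 0.22). Fmod, a collagen-binding proteoglycan, had 10.8 to 24.0 CPM at 2.5% protein and 31.7 to 39.7 CPM at 20% protein (-0.99 ± 0.25). All 3 fell without both libraries with cortex markers, by 0.87 ± 0.15, 1.16 ± 0.22 and 1.19 ± 0.21 on the log2 scale (adjusted p = 0.0147, 0.0306 and 0.0161, edgeR), and with all libraries 0 of the 3 passed. In all 3 genes the lowest library at 2.5% protein was replicate 1 of one of the fat levels, and replicate 2 of each fat level lay closer to the 20% protein group. Igf2 and Spp1, a growth factor and a secreted phosphoprotein, had overlapping groups (-0.69 ± 0.22 and -0.86 ± 0.21), and Col6a3, a collagen chain, was the member with a positive log2 change (0.11 ± 0.096).

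**Figure D3:**
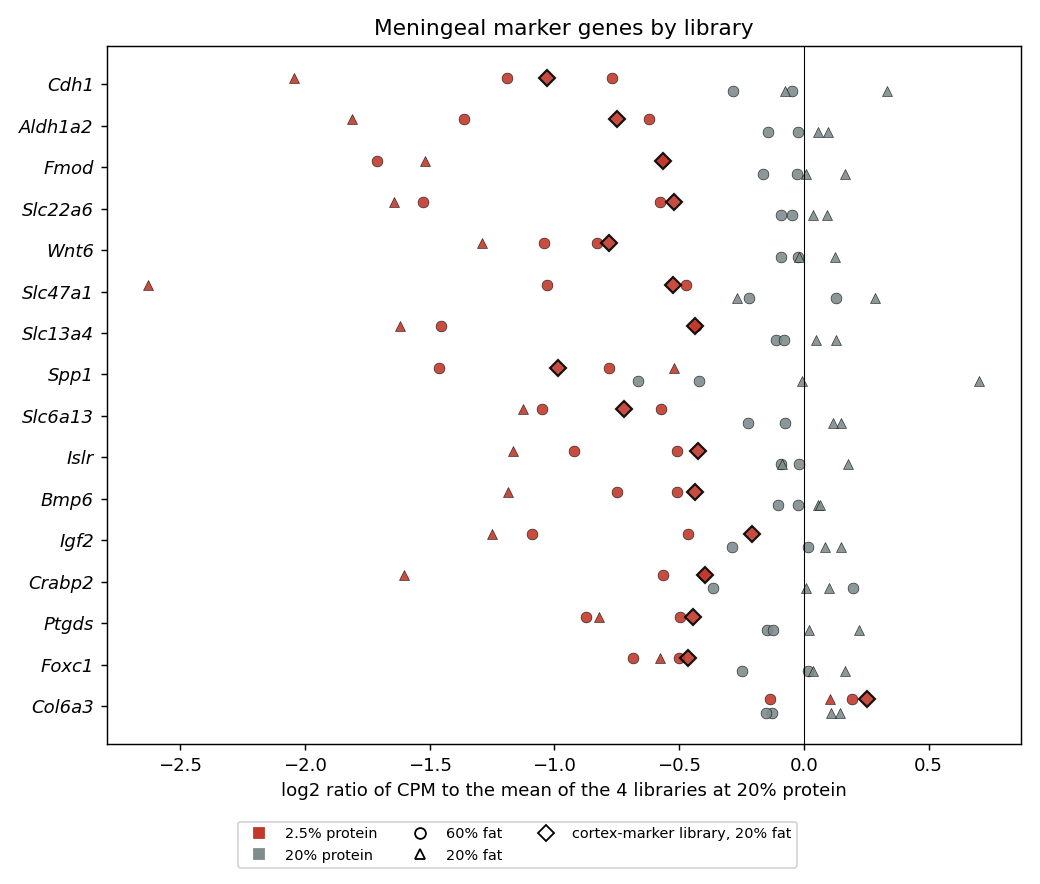
Log2 ratio of CPM to the mean of the 4 libraries at 20% protein (horizontal axis) for the 16 tested meningeal markers (rows), with 2.5% protein in red above 20% protein in grey, and the fat level by symbol. In 13 genes all 4 red points lie left of all 4 grey points, and the cortex-marker library (diamond) is among the red points nearest to the grey ones in most rows.

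Matrix genes of fibroblast-like cells were also lower at 2.5% protein. Of 16 markers of mural and fibroblast-like cells, 8 were lower and 0 higher at an unadjusted p under 0.05 (2.85% and 1.96% of all genes), with a median log2 change of -0.29. In 6 all libraries at 2.5% protein lay below all at 20% protein (2.28% of all genes). In 1, the potassium channel gene Kcnj8 (log2 change 0.24), all lay above (1.60% of all genes). Without both libraries with cortex markers 6 fell (0.254% of all genes): Col1a1, Col1a2, Col3a1, Bgn, Dcn and Acta2, of which the first 3 encode fibrillar collagen chains, Bgn and Dcn small proteoglycans and Acta2 the smooth muscle actin. Col1a2 had 22.2, 25.6, 18.5 and 27.4 CPM at 2.5% protein, against 33.4, 34.0, 39.9 and 37.1 CPM at 20% protein, with no overlap (log2 change -0.63 ± 0.11, adjusted p = 0.0851 in the edgeR quasi-likelihood test). Col1a1 had 9.63 to 13.7 CPM at 2.5% protein and 15.97 to 20.01 CPM at 20% protein (-0.63 ± 0.12). Sphk1, a sphingosine kinase on neither list, had 2.003 to 3.43 CPM at 2.5% protein and 3.92 to 6.30 CPM at 20% protein (-1.06 ± 0.18, adjusted p = 0.0664, edgeR), and fell by 1.23 ± 0.18 without both (adjusted p = 0.00762, edgeR). Endothelial markers, 17 in number, had a median of -0.088, with 4 lower and 0 higher at an unadjusted p under 0.05. Astrocyte, oligodendrocyte, microglial and pan-neuronal lists had medians of 0.013, -0.059, -0.052 and 0.0067.

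Markers of neighbouring brain regions also differed between libraries. The 15 thalamic markers had a median of 0.26, and 1 was higher at an unadjusted p under 0.05 (1.96% of all genes). Their summed level at 2.5% protein was 1708 and 1703 CPM with 60% fat and 1439 and 1096 CPM with 20% fat. At 20% protein it was 1423 and 1224 CPM with 60% fat and 1204 and 1305 CPM with 20% fat. The 12 striatal markers had a median of -0.33, and in 8 of them all 4 libraries at 2.5% protein lay below all 4 at 20% protein (2.28% of all genes). At an unadjusted p under 0.05, 2 of the 12 were lower (2.85% of all genes) and 0 higher. With or without both libraries with cortex markers, 0 of the 12 passed the adjusted test. Their summed level was 434 to 448 CPM at 2.5% protein and 469 to 611 CPM at 20% protein. The 19 cortical and hippocampal markers had a median of 0.27 with all libraries and -0.078 without both libraries with cortex markers. The 9 blood genes tested had a median of 0.62, and of 0.47 without both libraries with cortex markers. Their log2 changes ran from 0.064 to 2.13, and 1 was higher at an unadjusted p under 0.05. Among them, Hbb-bt, a beta-globin, had 23.9 CPM in the cortex-marker library. It had 1.8 to 2.8 CPM in the other libraries at 2.5% protein and 1.3 to 1.8 CPM at 20% protein. The part of these markers in the gene differences above was not tested.

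Functions not described above had medians between -0.17 and 0.13. The highest was 0.13 for 22 immediate early genes, which turned to -0.18 without both libraries with cortex markers. Next was 0.077 for 76 cytosolic ribosomal protein genes, of which 1 was higher at an unadjusted p under 0.05 (1.96% of all genes). Of 80 nuclear respiratory chain genes 0 were at that threshold (median 0.052). The lowest were -0.17 for 15 genes of the reproductive axis and -0.17 for 22 genes of reward. The reward list had the same lowest log2 change as the striatal list, -1.32. The part of striatal tissue in the reward median was not tested. Cyp19a1, the aromatase that makes oestrogen, averaged 0.447 CPM at 2.5% protein and 0.970 CPM at 20% protein, with no overlap (log2 change -1.11 ± 0.26, unadjusted p = 0.000474). Both means lie below the 1 CPM that the naming rule asks for. Of 18 heat shock genes 4 were lower at an unadjusted p under 0.05 (2.85% of all genes). Their median was -0.094 over both fat levels, 0.012 at 60% fat and -0.20 at 20% fat.

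**Figure D4:**
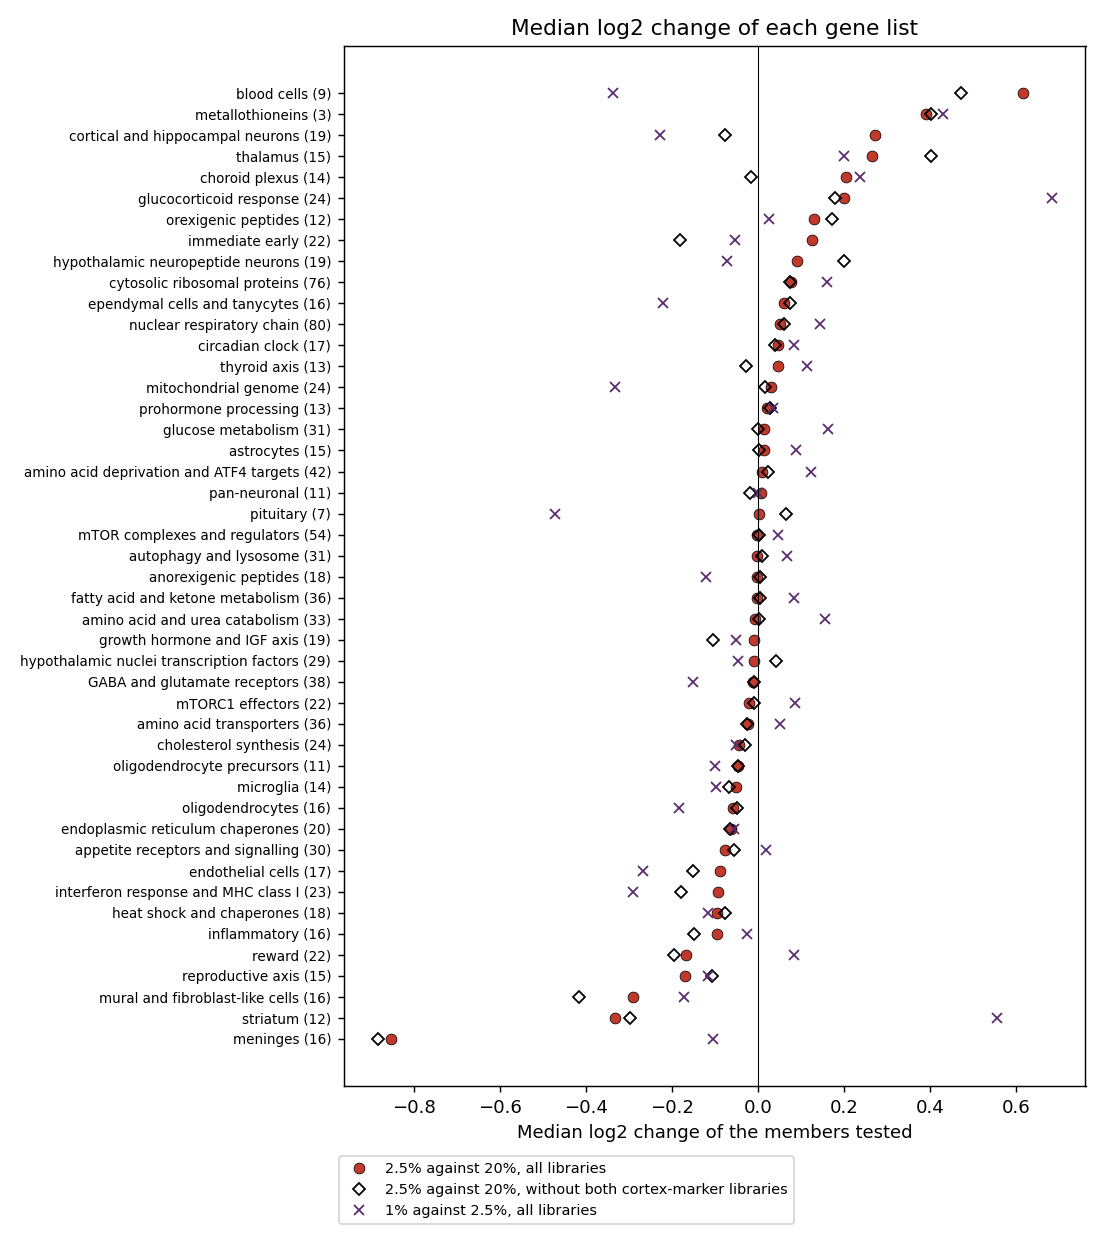
Median log2 change of the tested members of each of 46 gene lists (number of members in brackets) for 2.5% against 20% protein with all libraries (red circles), the same without both libraries with cortex markers (open diamonds) and 1% against 2.5% protein (crosses). Meningeal markers lie lowest at -0.85, and the glucocorticoid list has medians of 0.20 and 0.18 for 2.5% against 20% and 0.68 for 1% against 2.5% protein.

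Within each fat level, with 2 libraries against 2, calls were few. At 60% fat 0 of 16646 genes passed (0.00%) and 470 had an unadjusted p under 0.05 (2.82%). DESeq2 called 3 there at an adjusted p under 0.05. At 20% fat 0 rose and 2 fell, Pomc and Rnf181, and 894 had an unadjusted p under 0.05 (5.37%). The call of Pomc at 20% fat rests on few libraries: without the cortex-marker library 0 genes passed there, and without replicate 1 at 20% fat and 20% protein likewise 0. Leaving out replicate 2 of that diet gave 1 call, and leaving out replicate 1 at 20% fat and 2.5% protein, which leaves the cortex-marker library alone in its diet, 108. The interaction between protein and fat was called in 0 genes (0.00%), with 512 at an unadjusted p under 0.05 (3.08%). DESeq2 called 0 for it at an adjusted p under 0.05. Lhx8 and Lhx6, transcription factors of ventral forebrain neurons, and Chat, the acetylcholine-making enzyme, had log2 changes of -1.66, -1.03 and -1.02 at 60% fat and of -0.55, -0.23 and -0.25 at 20% fat. Lhx6 had 17.2 and 14.7 CPM at 60% fat with 2.5% protein, against 28.3 and 36.5 CPM at 60% fat with 20% protein. None of the 3 passed the adjusted test at either fat level or for the difference between fat levels, whose unadjusted p were 0.0364, 0.0140 and 0.0200.

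Compared with 5% protein, the next diet up, 2.5% protein gave 0 calls of 16646 (0.00%) and 717 genes at an unadjusted p under 0.05 (4.31%). DESeq2 called 13. Without both libraries with cortex markers 4 rose (0.0236%) and 15 fell (0.0886%). The meningeal list had a median of -0.64, the glucocorticoid list -0.00087 and the metallothioneins -0.076. Pomc had a log2 change of -0.60 ± 0.18 and Npy of 0.35 for 2.5% against 5% protein, with adjusted p of 0.634 and 1.00 from edgeR.

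Calls were more numerous between the lowest protein levels. For 1% against 2.5% protein 386 genes passed (2.32%) at an adjusted p under 0.05 in edgeR, of which 231 rose (1.39%) and 155 fell (0.931%). This comparison shares the 2.5% libraries with those above, so the values are given side by side. In 3 of the 4 libraries at 1% protein the mitochondrial share of counts was 1.54% to 1.78%, below the 2.42% to 2.98% at 2.5% protein, and its part in these calls was not tested. Without both libraries with cortex markers 1983 rose (11.7%) and 2043 fell (12.1%), so the number of calls depends on those libraries. The library at 1% protein left out there, replicate 2 at 20% fat, had a mitochondrial share of 3.20%. That fit thus keeps at 1% protein only the 3 libraries with a low share. Protein level and mitochondrial share cannot be told apart in its calls. Leaving out replicate 2 at 60% fat and 2.5% protein gave 95 calls, replicate 1 of that diet 159 and the cortex-marker library 253. The 4 highest named by the rule were Itgad, an integrin chain (log2 change 1.87 ± 0.26, SE), Otoa, an inner ear matrix protein (1.78 ± 0.38), Wfikkn2, a binder of growth differentiation factors (1.54 ± 0.20), and Cdkn1a (1.498 ± 0.23). The 4 lowest were Fbxw23 (-1.36 ± 0.30), Fabp7, a fatty acid binding protein of glia (-1.29 ± 0.23), H2-Ab1, an MHC class II chain (-1.15 ± 0.27), and Fbxw15 (-0.99 ± 0.13). Their log2 changes for 2.5% against 20% protein were 0.39, 1.21, 0.17 and 0.51 for the first 4, and 0.22, -0.24, -0.73 and -0.029 for the last 4.

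Npy and Pomc both passed at this step. Npy averaged 80.3 ± 29.6 CPM at 1% protein, 31.1 ± 8.94 CPM at 2.5%, 24.1 ± 2.84 CPM at 5% and 17.2 ± 3.57 CPM at 20% (SD, n = 4 each), and rose by log2 1.35 ± 0.19 at 1% against 2.5% protein (adjusted p = 0.00154, edgeR). Pomc averaged 12.7 ± 1.2025 CPM at 1% protein, 25.3 ± 8.77 CPM at 2.5%, 37.7 ± 6.12 CPM at 5% and 47.5 ± 7.56 CPM at 20%, and fell by log2 0.98 ± 0.19 at 1% against 2.5% (adjusted p = 0.0150, edgeR). The means of both genes thus followed the order of protein levels. Hcrt and Pmch, with log2 changes of -0.035 and -0.24 at that step, did not pass with all libraries. Without both libraries with cortex markers Pmch fell by 0.31 ± 0.069 (adjusted p = 0.00528, edgeR), as did 12.1% of all genes, and Hcrt did not pass.

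Glucocorticoid-responsive genes were among those that passed for 1% against 2.5% protein. Of 24 tested, 14 rose (1.39% of all genes) and 1 fell (0.931% of all genes), Nr3c1, which encodes the glucocorticoid receptor, and the median was 0.68. Without both libraries with cortex markers 18 rose and 1 fell, where 11.7% of all genes rose and 12.1% fell. Fkbp5 rose by 1.13 ± 0.14 and Ddit4 by 0.79 ± 0.080 (adjusted p = 0.000865 and 0.000149, edgeR). Mt2 averaged 151 ± 2.53 CPM at 1% protein, 113 ± 13.2 CPM at 2.5%, 126 ± 6.63 CPM at 5% and 82.3 ± 7.95 CPM at 20% (SD, n = 4 each), so its mean at 2.5% lay below that at 5%. Ddit4 averaged 106 ± 7.84 CPM at 1% protein, 61.0 ± 6.03 CPM at 2.5%, 60.0 ± 6.77 CPM at 5% and 49.1 ± 2.43 CPM at 20%. The meningeal list had a median of -0.85 for 2.5% against 20% protein and of -0.11 for 1% against 2.5%. For 1% against 2.5% protein 0 of 16 passed with all libraries (2.32% of all genes). Without both libraries with cortex markers 1 of 16 fell, where 12.1% of all genes fell. No difference between these comparisons was tested for any list.

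**Figure D5:**
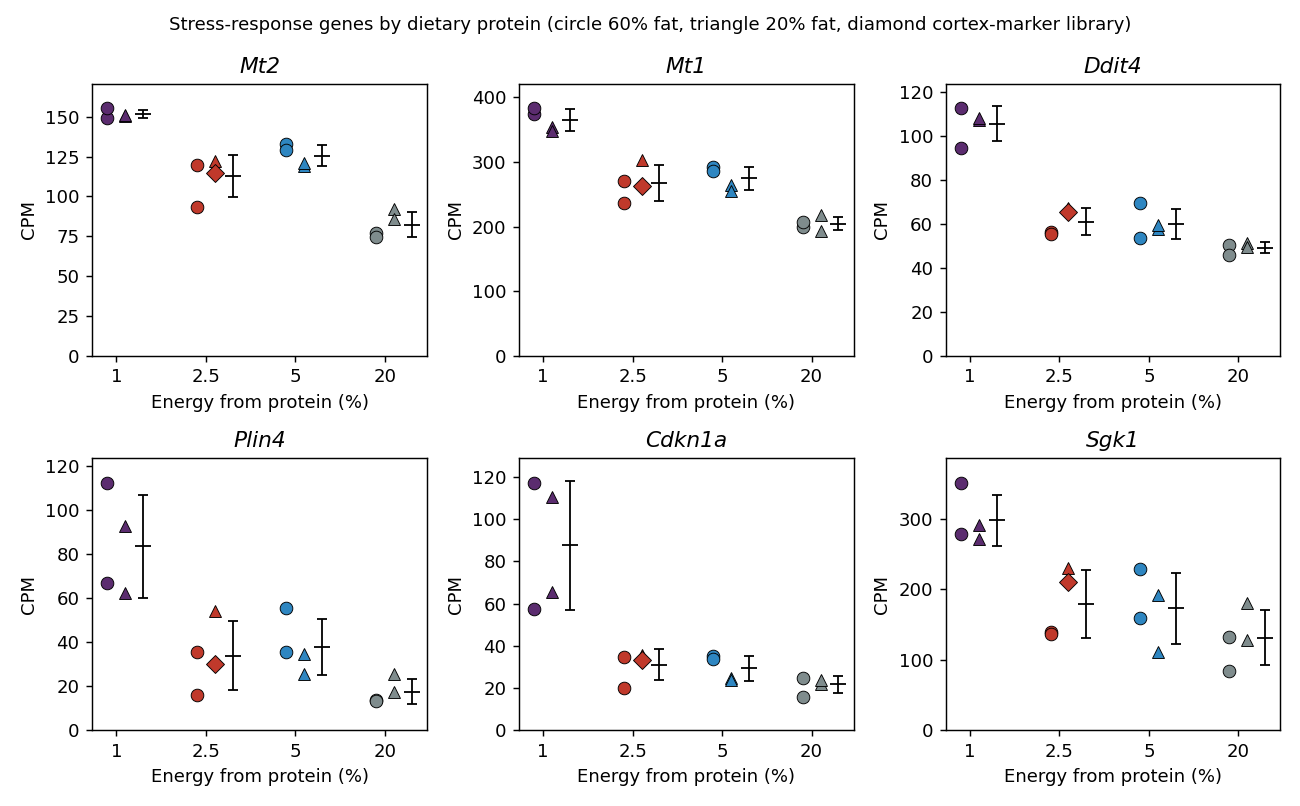
CPM of 6 stress-response genes at 1%, 2.5%, 5% and 20% of energy from protein in all 16 libraries, with the mean and SD of 4 libraries beside each group of points. Mt2 and Mt1 have means at 2.5% protein (113 and 268 CPM) between those at 1% (151 and 365 CPM) and 20% (82.3 and 204 CPM). Their means at 5% protein (126 and 274 CPM) lie above those at 2.5%, so they do not follow the order of protein levels. Cdkn1a has its highest mean, 87.6 CPM, at 1% protein.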

How the data were processed

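The deposited table holds raw read counts per gene, which the authors left unnormalised, for 47069 genes in 16 libraries of hypothalamic RNA. Per the submitters' processing notes, tools included HISAT2 2.1.0 and SAMtools 1.2, with FastQC, featureCounts and Subread 5.0 beside edgeR, on build GRCm38. Whether counting used strand is not stated in those notes, so a gene and its antisense neighbour cannot be told apart. The counted length in the table equals the whole gene span for 85.47% of 46488 identifiers matched to GENCODE M21, so intronic reads and reads of overlapping genes may be counted.

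Low counts were filtered by filterByExpr (minimum count 10), libraries were scaled by TMM, and the quasi-likelihood F test of edgeR 4.0.16 (R 4.3.3) was fitted to all 16 libraries, with protein as 4 levels and fat as 2. Fat levels were tested alone, and for their difference, in a model of 8 diet groups. Adjusted p-values are Benjamini-Hochberg over all genes tested, called at 0.05. Log2 CPM used a prior count of 2. Motifs were searched on both strands of RefSeq promoters (GRCm38.p6), and TGCNCNC and TATAAA were added after results were seen. The naming rule took the 12 highest and 12 lowest calls with a mean of at least 1 CPM over the 8 libraries, which named no gene, the 4 highest and 4 lowest in the other comparisons, up to 4 called members per list and 10 core genes. The comparison, the 46 lists and the tests were chosen with earlier results of these data known. Alternatives used DESeq2 1.42.0 and sva 3.50.0 and left out libraries. The steps were tested on simulated counts. Replicate libraries differed beyond sampling noise, so none was merged.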

Additional observations from a re-analysis of the deposited data

Results flagged for a closer look

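Of 183 sets of 4 libraries tested, each a gene or list at a single protein level, 11 had a highest or lowest library whose gap to its nearest neighbour, divided by the range of the 4, was above Dixon's critical value; chance flags about 1 in 20. At 2.5% protein the cortex-marker library, replicate 2 at 20% fat, was highest for Slc17a7 (562.3 CPM, others 80.66 to 136.0), Npy (44.33 CPM, others 25.36 to 28.52), Sphk1 (3.427 CPM, others 2.003 to 2.227) and the thyroid axis list (mean log2 deviation 0.463 from all libraries, others -0.2825 to -0.1969). The thyroid axis list had the same highest log2 change for 2.5% against 20% protein as the choroid plexus list, 2.26. The part of choroid plexus tissue in its deviation was not tested. Replicate 1 at 20% fat and 2.5% protein was highest for Mtor (168.3 CPM, others 161.3 to 162.4), Cacng7 (4.843 CPM, others 0 to 0.1088) and Ppp1ca (5.596 CPM, others 0 to 0.1086). Cacng7 encodes a calcium channel subunit and Ppp1ca, which overlaps the coding gene Rad9a, a protein phosphatase subunit. At 60% fat and 2.5% protein, replicate 2 was lowest for Cdkn1a (20.04 CPM, others 33.29 to 35.79), and replicate 1 was highest for the fatty acid and ketone list (-0.02672, others -0.06712 to -0.06555). At 20% protein, replicate 2 at 60% fat was highest for Lhx6 (36.48 CPM, others 26.67 to 28.33) and lowest for choroid plexus markers (-0.2841, others -0.1363 to -0.1121).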

How the results depend on the processing

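For 2.5% against 20% protein over both fat levels the count of 1 call became 25 with no filter on low counts, 26 with DESeq2, 4 with robust estimation, 5 with only the 8 libraries, 29 with 1 surrogate variable, 50 without both libraries with cortex markers and 7 without the 3 libraries at 1% protein with few mitochondrial counts, an alternative chosen after seeing the data. Of the calls of the other 6 settings, 22, 22, 4, 4, 24 and 7 were among those 50. Median-ratio scaling, a minimum count of 50 and the model of 8 diet groups each gave 1, which in the last was Pomc. Leaving out each library at 2.5% or 20% protein gave 0 to 3 calls. At 60% fat the count of 0 became 14 with no filter, 3 with DESeq2, 2 with only the 8 libraries and 0 to 2 when libraries were left out. At 20% fat the count of 2 became 94 with no filter, 12 with DESeq2 and 0 to 108 when libraries were left out, the 108 coming without replicate 1 at 2.5% protein, which leaves the cortex-marker library as the lone sample of its diet. The difference between fat levels had 5 with no filter and 0 to 40 when libraries were left out. Against 5% protein the count of 0 became 12 with no filter, 13 with DESeq2, 1 with a surrogate variable and 19 without both libraries with cortex markers. For 1% against 2.5% the count of 386 became 809 with DESeq2, 4026 without both libraries with cortex markers, and 95 to 391 when libraries were left out (159 and 95 without replicate 1 and 2 at 60% fat and 2.5% protein, 253 without the cortex-marker library). Over 19 alternatives Pomc passed in 4, Mt2 in 7, Mt1 in 6, Wnt6 in 8, Npy, Hcrt and Pmch in 1 each and Rnf181 in 13. The log2 change of Asns, 0.0098 with all libraries and never past the threshold, ran from -0.027 to 0.031. The causes were not tested. The correlation by replicate number, 1 value per pair of diets, ran from -0.127 to 0.0368 among the 4 diets at 2.5% and 20% protein. Over all 28 pairs of diets it ran from -0.17 to 0.339, with 7 over 0.1 and 4 under -0.1. The highest was between 1% and 5% protein at 20% fat. The fit with all libraries did not use replicate numbers as pairs. The replicate block gave 7 calls over both fat levels and 572 for 1% against 2.5%. Calls of Rnf181, Cacng7 and Cuedc1 rest on at most 66, 90 and 56 counts in a library.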
